A study of Homo sapiens with 2 samples.

Results

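The genes described here build cholesterol and fatty acids, or control that synthesis, and were taken by name: 18 of sterol synthesis, 8 of fatty acid synthesis and 6 regulators or sterol carriers. All 32 were found among the 19362 genes of the deposited table, and all 32 had a mean of at least 1 CPM (reads scaled to the library's total) over both libraries, as had 14815 genes in all. They were measured by RNA sequencing in FTC-133, a line established from a human follicular thyroid carcinoma, in cells transfected with CHI3L1 siRNA (1 library) and in cells transfected with control siRNA (1 library). CHI3L1 encodes a secreted chitin-binding glycoprotein without chitinase activity. The sources used here state neither the siRNA sequences and the time after transfection nor whether a library came from 1 culture.

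Cells make cholesterol from acetyl-CoA through mevalonate, isoprenoid diphosphates, squalene and lanosterol, and make fatty acids from the same acetyl-CoA through malonyl-CoA. Both pathways are transcribed under SREBP proteins, membrane-bound transcription factors that SCAP escorts from the endoplasmic reticulum to the Golgi, where proteases free the active part. When sterols are plentiful, INSIG proteins hold SCAP and its cargo back in the endoplasmic reticulum. The SREBF1 product is best known for driving fatty acid genes, and the SREBF2 product for driving sterol genes.

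With 1 library a group there is no replicate check and no p-value, and each comparison is of these libraries. Folds are log2 of the level with CHI3L1 siRNA over the level with control siRNA, each raised by 1 CPM, and a gene counts as higher or lower at 1.5-fold. Ratios are of reads, followed in parentheses by an exact (Clopper-Pearson) 95% interval that covers counting error only. A level in CPM is close to a share of the library, so fewer cells that use a gene and less of its RNA per cell cannot be told apart.

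The siRNA target CHI3L1 stood at 48.6 CPM in the CHI3L1 siRNA library, against 140 CPM in the control siRNA library, a ratio of 0.347 (0.321 to 0.374). The libraries held 19467345 reads with CHI3L1 siRNA and 15837449 reads with control siRNA. The thyroid transcription factor genes NKX2-1 (112 CPM with CHI3L1 siRNA and 88.6 CPM with control siRNA) and PAX8 (71.2 CPM with CHI3L1 siRNA and 82.8 CPM with control siRNA) were present, while TG, the thyroglobulin gene, had 14 reads with CHI3L1 siRNA and 10 with control siRNA. Of tissues known for lipid synthesis, 2 of 5 adipocyte markers were in the table, with summed levels of 11.0 CPM with CHI3L1 siRNA and 9.17 CPM with control siRNA, and 0 of 3 hepatocyte markers were.

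In the CHI3L1 siRNA library, 4 of the 32 genes were at least 1.5-fold lower and 0 at least 1.5-fold higher, against 13.4% lower and 7.73% higher among all tested genes. Given as a share, 12.5% of the members were lower, which is near the background. At 2-fold, 1 member was lower (IDI1) and 0 higher, against 4.41% and 1.03% of all tested genes. Intervals lay wholly beyond 1.5-fold for 2 lower members (IDI1 and ACAT2) and 0 higher ones, against 8.40% and 3.58%. The lower genes at 1.5-fold were IDI1, ACAT2 and EBP of sterol synthesis and ELOVL6 of fatty acid synthesis. The other 28 of 32 did not reach 1.5-fold, and neither did 11682 of the 14815 tested genes. The median log2 fold was −0.18 over the members and 0.01 over all tested genes. ELOVL6 lay just inside the threshold at a log2 fold of −0.64, and SCD (0.54) and SREBF2 (0.51) lay just outside it on the other side.

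**Figure D1:**
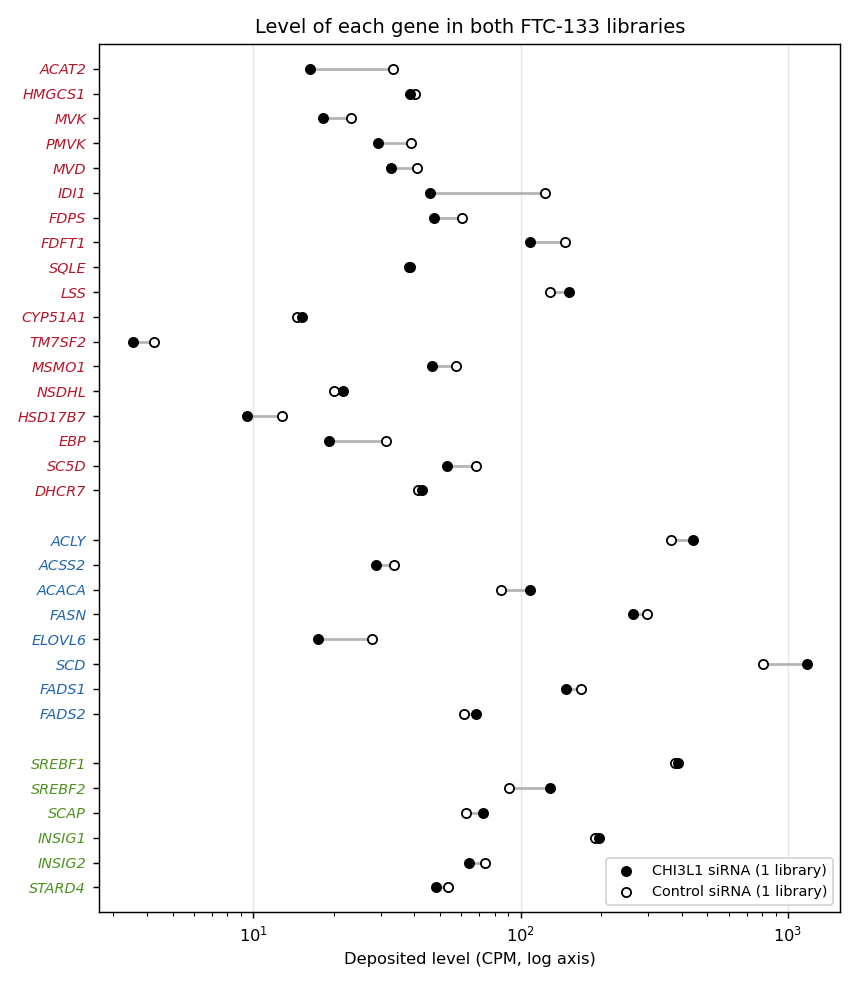
Level of each gene in CPM (log axis) in the CHI3L1 siRNA library (filled points) and the control siRNA library (open points), with sterol synthesis genes in red, fatty acid synthesis genes in blue and regulators in green. SCD has the highest level and TM7SF2 the lowest in both libraries, and the widest gap on this axis is that of IDI1, at 45.9 CPM with CHI3L1 siRNA and 123 CPM with control siRNA.

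The first steps of sterol synthesis, which lead from acetyl-CoA to farnesyl diphosphate, had lower levels with CHI3L1 siRNA for each of their 7 genes. After the correction for length and GC content described further on, 5 of the 7 had log2 folds below 0. Among all genes the share below 0 was 48.8%, and 46.2% after that correction. Of the 7, 2 (28.6%) were at least 1.5-fold lower, against 13.4% of all tested genes. IDI1 (ENSG00000067064, minus strand of chromosome 10, 1039152 to 1049170 in GRCh38) encodes the isomerase that turns isopentenyl diphosphate into its reactive isomer. It had 894 reads (45.9 CPM) with CHI3L1 siRNA and 1949 reads (123 CPM) with control siRNA, a ratio of 0.372 (0.343 to 0.403). Its log2 fold of −1.41 was the lowest of the members, and 1.42% of all tested genes had a lower one. ACAT2 (ENSG00000120437, plus strand of chromosome 6, 159760328 to 159779055) encodes the cytosolic thiolase that joins acetyl-CoA units at the start of the pathway. It stood at 16.3 CPM with CHI3L1 siRNA and 33.3 CPM with control siRNA, a ratio of 0.489 (0.424 to 0.564). Exons of ACAT2 share 397 bases with exons of TCP1 on the opposite strand, a gene with 144 CPM with CHI3L1 siRNA and 165 CPM with control siRNA. The sources used here do not state whether the counting used strand, so reads in those bases cannot be assigned to one gene.

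The other genes of these first steps differed less. HMGCS1, which makes HMG-CoA, stood at 38.6 CPM with CHI3L1 siRNA and 40.3 CPM with control siRNA, a ratio whose interval held 1 (0.860 to 1.07). MVK, the mevalonate kinase, stood at 18.3 CPM with CHI3L1 siRNA and 23.2 CPM with control siRNA, a ratio of 0.789 (0.680 to 0.915). PMVK, the next kinase, stood at 29.4 CPM with CHI3L1 siRNA and 38.8 CPM with control siRNA, a ratio of 0.758 (0.675 to 0.851). Both kinase genes thus lay below 1 with their whole intervals. MVD, the decarboxylase that yields isopentenyl diphosphate, stood at 32.7 CPM with CHI3L1 siRNA and 40.9 CPM with control siRNA, a ratio of 0.801 (0.717 to 0.895). FDPS, which condenses isoprenoid units into farnesyl diphosphate, stood at 47.5 CPM with CHI3L1 siRNA and 60.2 CPM with control siRNA, a ratio of 0.790 (0.721 to 0.865). The ratios of MVK, PMVK, MVD and FDPS thus lay close together, each with its whole interval below 1 and none past 1.5-fold. Between 21.8% (PMVK) and 26.2% (MVD) of all tested genes had a lower log2 fold than these. After the length and GC correction their log2 folds were −0.37 for MVK, 0.0001 for PMVK, −0.20 for MVD and −0.20 for FDPS. GENCODE names 8 pseudogenes of FDPS, of which 1 was in the table with 8 reads with CHI3L1 siRNA and 7 with control siRNA, so reads of FDPS are uncertain where such copies share its sequence.

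From farnesyl diphosphate to lanosterol the enzymes split. FDFT1, the squalene synthase that commits farnesyl diphosphate to sterols, had 108 CPM with CHI3L1 siRNA and 146 CPM with control siRNA, a ratio of 0.740 (0.697 to 0.785). SQLE, the squalene epoxidase, had 38.3 CPM with CHI3L1 siRNA and 38.4 CPM with control siRNA, a ratio of 0.995 (0.893 to 1.11). LSS, which folds the epoxide into lanosterol, had 151 CPM with CHI3L1 siRNA and 129 CPM with control siRNA, a ratio of 1.17 (1.11 to 1.24). LSS was the only gene of sterol synthesis whose interval lay wholly above 1, and its log2 fold was −0.11 after the length and GC correction.

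Among the 8 genes from lanosterol to cholesterol, EBP alone passed 1.5-fold, as lower. That is 12.5% of the 8, near the 13.4% of all tested genes, and 0 of the 8 passed after the length and GC correction. EBP (ENSG00000147155, plus strand of chromosome X, 48521158 to 48528716) encodes a sterol isomerase that also binds the drug emopamil. It had 375 reads (19.2 CPM) with CHI3L1 siRNA and 494 reads (31.2 CPM) with control siRNA, a ratio of 0.616 (0.537 to 0.706). MSMO1, the methyl sterol oxidase, stood at 46.7 CPM with CHI3L1 siRNA and 57.2 CPM with control siRNA, and SC5D, the desaturase that acts after EBP, at 53.2 CPM with CHI3L1 siRNA and 68.1 CPM with control siRNA. Their ratios were 0.816 (0.743 to 0.895) and 0.782 (0.717 to 0.852), both below 1 with their intervals. After the length and GC correction the log2 folds were 0.20 for MSMO1 and 0.07 for SC5D. HSD17B7, the sterol ketoreductase, had 9.44 CPM (184 reads) with CHI3L1 siRNA and 12.8 CPM (203 reads) with control siRNA, a ratio of 0.735 (0.599 to 0.902). A pseudogene of HSD17B7 in the table had 28 reads with CHI3L1 siRNA and 21 with control siRNA.

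The interval of the ratio held 1 for the other late sterol genes. These were CYP51A1, the lanosterol demethylase, at 15.2 CPM (297 reads) with CHI3L1 siRNA and 14.5 CPM (230 reads) with control siRNA, a ratio of 1.05, NSDHL, a sterol dehydrogenase (0.934 to 1.26), DHCR7, which reduces the last intermediate to cholesterol (0.934 to 1.15), and TM7SF2, a sterol reductase (0.588 to 1.19). In CPM, NSDHL stood at 21.6 with CHI3L1 siRNA and 20.0 with control siRNA, and DHCR7 at 42.8 with CHI3L1 siRNA and 41.3 with control siRNA. TM7SF2 stood at 3.54 CPM with CHI3L1 siRNA and 4.24 CPM with control siRNA. TM7SF2 had the fewest reads of the members, 69 with CHI3L1 siRNA and 67 with control siRNA, and a difference of 1.5-fold downward lay within its interval. In all, 11 of 18 sterol genes had an interval wholly below 1, 1 wholly above 1 and 6 holding 1. Among the 14815 tested genes the interval lay below 1 for 29.7%, above 1 for 4737 genes and held 1 for 38.4%.

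**Figure D2:**
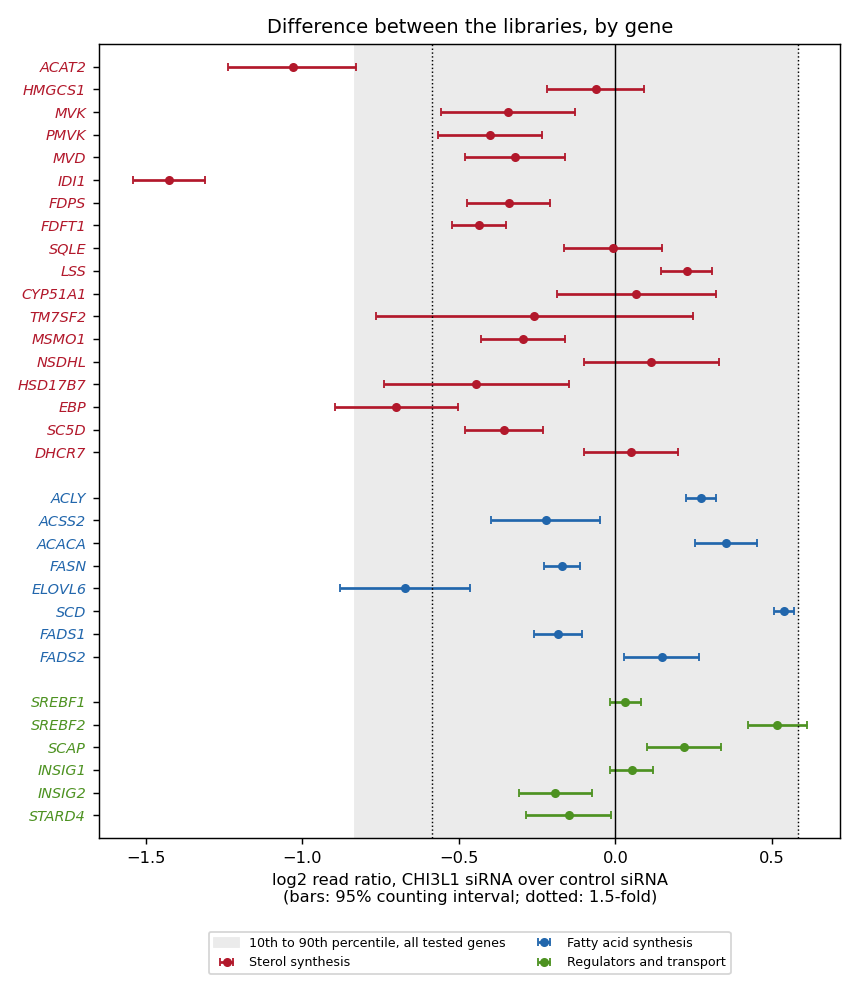
Log2 read ratio of CHI3L1 siRNA over control siRNA for each gene, with 95% counting intervals as bars, dotted lines at 1.5-fold and the 10th to 90th percentile of all tested genes shaded. IDI1 and ACAT2 lie left of the shaded range, and sterol synthesis genes (red) lie mostly left of 0 while fatty acid synthesis genes (blue) lie on both sides in these uncorrected values (7 of 8 below 0 after the length and GC correction).

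The fatty acid genes were lower for 4 of 8 and higher for 4 of 8 by level. ELOVL6 alone passed 1.5-fold, which is 12.5% of the 8, near the 13.4% lower among all tested genes. After the length and GC correction 7 of the 8 had a log2 fold below 0. ELOVL6 (ENSG00000170522, minus strand of chromosome 4, 110045846 to 110199199) encodes an elongase of saturated fatty acids. It had 17.5 CPM with CHI3L1 siRNA and 27.9 CPM with control siRNA, a ratio of 0.627 (0.543 to 0.724). SCD (ENSG00000099194, plus strand of chromosome 10, 100347124 to 100364834) encodes the desaturase that places the first double bond in saturated fatty acids. It had 22916 reads (1175 CPM) with CHI3L1 siRNA and 12799 reads (809 CPM) with control siRNA, a ratio of 1.45 (1.42 to 1.48). SCD thus stood higher while the elongase that supplies part of its substrate stood lower, and only the elongase passed the threshold.

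Genes of acetyl-CoA supply and of the synthase steps differed by smaller amounts. ACLY, which makes cytosolic acetyl-CoA from citrate, had 440 CPM with CHI3L1 siRNA and 364 CPM with control siRNA, a ratio of 1.21 with an interval above 1. ACSS2, which makes it from acetate, had 28.8 CPM with CHI3L1 siRNA and 33.6 CPM with control siRNA, a ratio of 0.857 (0.760 to 0.967). ACACA, the carboxylase that makes malonyl-CoA, had 108 CPM with CHI3L1 siRNA and 84.5 CPM with control siRNA, a ratio of 1.28 (1.19 to 1.37). FASN, the fatty acid synthase, had 263 CPM with CHI3L1 siRNA and 296 CPM with control siRNA, a ratio of 0.889 (0.854 to 0.925). By the deposited values ACLY and ACACA lay above 1 and ACSS2 and FASN below it. After the length and GC correction all 4 had log2 folds below 0, at −0.06 for ACLY, −0.40 for ACSS2, −0.11 for ACACA and −0.62 for FASN.

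The desaturases of polyunsaturated fatty acids, FADS1 and FADS2, are neighbours on chromosome 11 with 490 bases of annotated exons in common on opposite strands. FADS1 had 148 CPM with CHI3L1 siRNA and 168 CPM with control siRNA, a ratio of 0.880 (0.835 to 0.928). FADS2 had 68.3 CPM with CHI3L1 siRNA and 61.7 CPM with control siRNA, a ratio of 1.11 (1.02 to 1.20). Each interval excluded 1, on opposite sides, while the corrected log2 folds were −0.47 for FADS1 and −0.01 for FADS2. Reads in the shared bases cannot be assigned to one of them.

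Of the 6 regulators and carriers, 0 passed 1.5-fold, where 7.73% of all tested genes were higher and 13.4% lower. Most genes of the table did not pass either, so this count does not set the regulators apart. SREBF2 had 129 CPM with CHI3L1 siRNA and 90.4 CPM with control siRNA, a ratio of 1.43 (1.34 to 1.53). SREBF1 had 387 CPM with CHI3L1 siRNA and 379 CPM with control siRNA, a ratio of 1.02 (0.988 to 1.06). SREBF2, the gene of the sterol-pathway SREBP, thus stood higher by less than 1.5-fold, and its log2 fold of 0.51 was 0.14 after the length and GC correction. SCAP, the escort, had 72.5 CPM with CHI3L1 siRNA and 62.4 CPM with control siRNA, a ratio of 1.16 (1.07 to 1.26). INSIG1, a retention factor whose own gene is an SREBP target, had 196 CPM with CHI3L1 siRNA and 189 CPM with control siRNA, a ratio of 1.04 (0.988 to 1.09). INSIG2, its relative, had 64.3 CPM with CHI3L1 siRNA and 73.4 CPM with control siRNA, a ratio of 0.875 (0.808 to 0.949). INSIG1 and INSIG2 thus differed by little, and only the interval of INSIG2 excluded 1. STARD4, which carries cholesterol between membranes, had 48.3 CPM with CHI3L1 siRNA and 53.5 CPM with control siRNA, a ratio of 0.902 (0.821 to 0.991). SREBF1 shares 556 exon bases with RAI1 on the opposite strand, a gene with 78.1 CPM with CHI3L1 siRNA and 65.2 CPM with control siRNA. In all, 11 of the 32 members have exon bases in common with another listed gene (10 with one read from the other strand, 2 with one in the same direction), and reads there are uncertain. Among these is MVK, which has 306 bases in common with MMAB, at 13.7 CPM with CHI3L1 siRNA and 24.0 CPM with control siRNA.

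Promoter sequences are shown for SREBF2, the regulator with the largest log2 fold, and for INSIG1, which holds the palindromic E-box TCACGTGA. Also shown are those of IDI1 and EBP, the lower sterol genes that have a RefSeq window, and of SCD, the member with the highest fold. Each runs from 250 bases before to 50 bases after a start annotated by RefSeq on GRCh38.p14, and is written 5′ to 3′ on the gene's strand. Capitals mark TCACNCCAC (the core of the sterol regulatory element), TCACGTGA (a palindromic E-box) and CCAAT (the NF-Y box) on either strand, the last read as ATTGG on the other strand. The IDI1 window is 1 of 3 annotated for the gene.
SREBF2, chr22:41832855-41833154, plus strand: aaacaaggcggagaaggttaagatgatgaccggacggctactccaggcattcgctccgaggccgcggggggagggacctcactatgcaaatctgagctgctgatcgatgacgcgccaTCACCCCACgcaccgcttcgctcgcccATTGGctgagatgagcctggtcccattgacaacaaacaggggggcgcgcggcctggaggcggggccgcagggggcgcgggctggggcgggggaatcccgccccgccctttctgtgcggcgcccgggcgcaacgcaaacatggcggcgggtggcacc
INSIG1, chr7:155297628-155297927, plus strand: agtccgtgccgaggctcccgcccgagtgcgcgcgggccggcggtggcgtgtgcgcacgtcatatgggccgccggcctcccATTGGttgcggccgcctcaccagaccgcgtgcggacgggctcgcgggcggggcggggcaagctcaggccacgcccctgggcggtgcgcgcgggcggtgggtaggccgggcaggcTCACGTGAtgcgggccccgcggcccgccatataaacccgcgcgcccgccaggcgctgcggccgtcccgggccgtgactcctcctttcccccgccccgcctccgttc
IDI1, chr10:1048837-1049136, minus strand: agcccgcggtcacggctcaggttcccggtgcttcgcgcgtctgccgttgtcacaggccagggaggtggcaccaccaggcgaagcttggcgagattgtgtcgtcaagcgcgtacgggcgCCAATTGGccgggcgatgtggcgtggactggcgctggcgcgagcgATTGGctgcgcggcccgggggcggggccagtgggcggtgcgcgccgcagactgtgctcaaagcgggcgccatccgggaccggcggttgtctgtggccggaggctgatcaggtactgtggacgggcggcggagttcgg
EBP, chrX:48521558-48521857, plus strand: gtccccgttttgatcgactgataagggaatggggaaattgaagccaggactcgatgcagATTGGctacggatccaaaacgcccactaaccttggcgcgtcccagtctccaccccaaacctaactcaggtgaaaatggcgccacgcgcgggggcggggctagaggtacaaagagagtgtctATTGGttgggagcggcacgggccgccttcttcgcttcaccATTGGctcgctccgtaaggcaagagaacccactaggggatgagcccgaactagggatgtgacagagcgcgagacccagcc
SCD, chr10:100346983-100347282, plus strand: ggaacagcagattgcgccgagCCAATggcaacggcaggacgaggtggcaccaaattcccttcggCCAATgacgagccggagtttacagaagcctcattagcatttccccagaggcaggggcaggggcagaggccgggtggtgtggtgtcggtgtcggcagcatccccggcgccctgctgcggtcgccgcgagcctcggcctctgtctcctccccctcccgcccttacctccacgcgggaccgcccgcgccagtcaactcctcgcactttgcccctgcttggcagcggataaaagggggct

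RefSeq promoter windows were found for 28 of the 32 members. TCACNCCAC was present in SREBF2 alone among them, 133 to 125 bases before the start, and in 1.13% of all 35116 promoter windows. The match is part of an exact 10-base form of the sterol regulatory element. That form was found in no other member with a window and in 0.0456% of all windows. Sites that differ from the searched letters were not counted, and ACAT2, FDFT1, SQLE and FASN had no window. The absence of a match thus does not show that a member lacks a sterol regulatory element. TCACGTGA was present in INSIG1 alone, 56 to 49 bases before the start, and in 0.980% of all windows and 1.63% of those of tested genes. The shorter E-box CACGTG was not counted, and windows of other members, such as SC5D, LSS and SCAP, hold it. CCAAT was present in 25 of the 39 member windows (64.1%), in 34.6% of all windows and in 34.8% of the 16097 windows of tested genes. GGGCGG, the Sp1 box, was present in 35 of 39 member windows (89.7%), in 45.0% of all windows and in 64.8% of those of tested genes. Members with CCAAT in a window had a median log2 fold of −0.15 (21 genes) and those without it −0.18 (7 genes). A match is a match of letters, and binding was not measured.

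Set side by side, the sterol genes had a median log2 fold of −0.32 with 14 of 18 below 0, and the fatty acid genes −0.01 with 4 of 8 below 0, where 48.8% of all tested genes were below 0. After the length and GC correction described next, 12 of 18 sterol genes and 7 of 8 fatty acid genes were below 0, against 46.2% of all corrected genes. The regulators had a median of 0.04. The sterol median was thus 0.31 below the fatty acid median, a difference with no replicate check. Summed over genes, sterol synthesis made up 738 CPM with CHI3L1 siRNA and 923 CPM with control siRNA, a ratio of 0.800 (0.781 to 0.818), and 0.865 (0.845 to 0.887) without IDI1. Fatty acid synthesis made up 2248 CPM with CHI3L1 siRNA and 1844 CPM with control siRNA, a ratio of 1.22 (1.20 to 1.24). SCD held 52.3% of that sum with CHI3L1 siRNA and 43.9% with control siRNA, and without SCD the ratio was 1.04 (1.02 to 1.06).

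Transcript and coding length differed between the branches, and folds followed them across the whole table. The median coding length was 1196 nt for the sterol genes, 1803 nt for the fatty acid genes and 1410 nt for all tested coding genes. Over the 32 members, which share both libraries, Spearman's rho of log2 fold with coding length was 0.58 and Pearson's r with its logarithm 0.53, against 0.46 for both over all 12660 tested coding genes. Members with coding sequences of at most 1000 nt had a median log2 fold of −0.35 (9 genes), where all such genes had −0.26. Between 1000 and 1500 nt the 11 members had −0.31 and all genes 0.01, and above 3000 nt the 6 members had 0.24 and all genes 0.33.

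**Figure D3:**
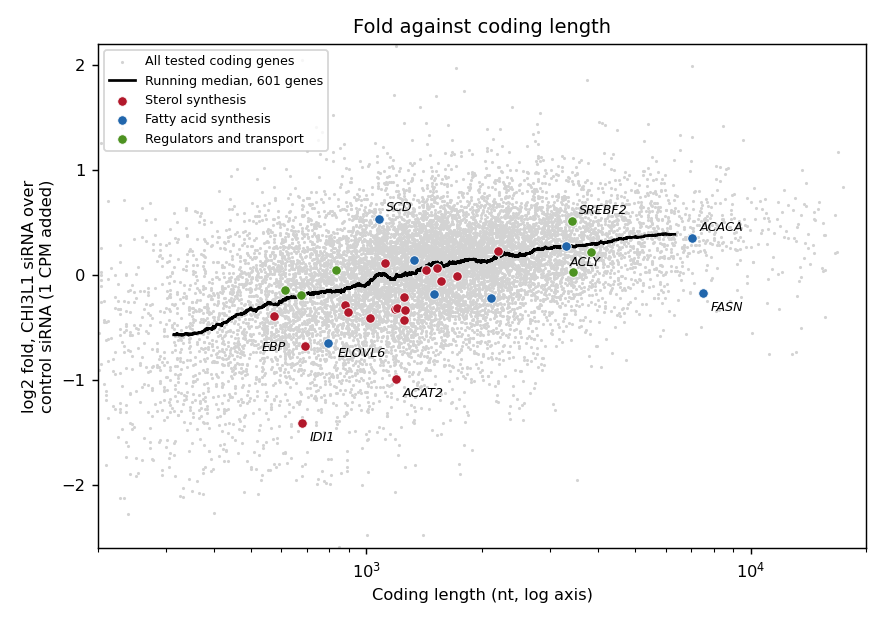
Log2 fold of CHI3L1 siRNA over control siRNA (1 CPM added) against coding length (nt, log axis) for all tested coding genes (grey), their running median (black line) and the members by branch. Short coding sequences have lower folds over the whole table, IDI1 and ACAT2 lie well below the line, and FASN lies below it among the longest.

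After a smooth trend in transcript length, coding length and GC content was subtracted, the order of the branches turned round. The corrected medians were −0.09 for sterol genes and −0.26 for fatty acid genes, a difference of 0.16 with the sterol median on top. The corrected median of the regulators was 0.12, and that of all corrected genes 0.04. By the 1.5-fold rule 4 members were then lower and 0 higher, where 6.85% of corrected genes were lower and 6.61% higher. IDI1 (−1.17), ACAT2 (−1.11) and ELOVL6 (−0.67) remained lower, FASN (−0.62) passed the threshold, and EBP (−0.48) no longer did. The highest corrected log2 folds were those of STARD4 (0.44) and INSIG2 (0.39), both below 0 before, and that of SCD was 0.29. In all, 13 members had the other sign after the correction. Those below 0 before and above it after were HMGCS1, PMVK, MSMO1, SC5D, INSIG2 and STARD4. Those above 0 before and below it after were LSS, DHCR7, ACLY, ACACA, FADS2, SREBF1 and SCAP. Some of these signs mean little, since PMVK (0.0001), FADS2 (−0.007) and DHCR7 (−0.02) lay very near 0 after the correction. Among transcripts of at least 2000 nt, uncorrected, the sterol median stayed below the fatty acid median by 0.28, with 11 sterol and 8 fatty acid genes.

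**Figure D4:**
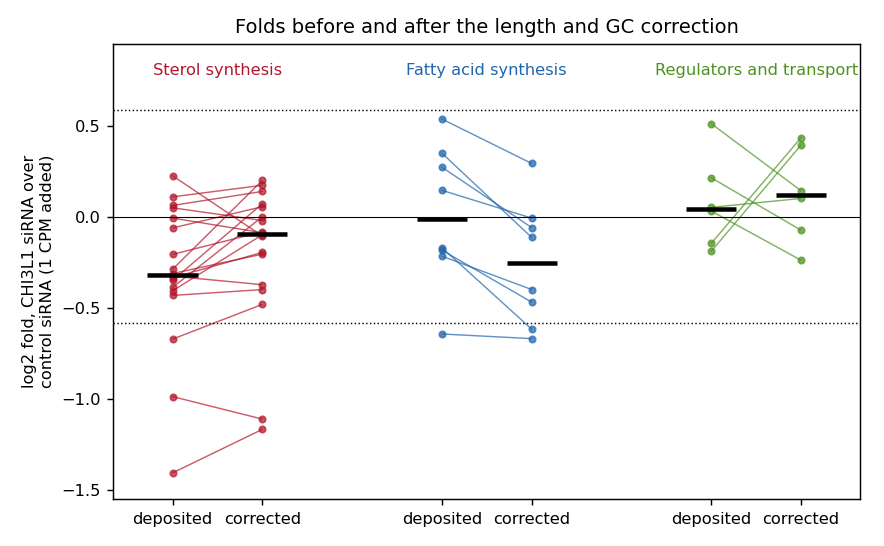
Log2 fold of each member in the deposited values and after the correction for length and GC content, by branch, with black bars at the medians and dotted lines at 1.5-fold. The sterol median moves up to −0.09 and the fatty acid median down to −0.26, while IDI1 and ACAT2 stay the lowest of all members in both.

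Levels between genes were compared as CPM per kilobase of the annotated transcript. SCD had the highest such level, at 219 with CHI3L1 siRNA and 151 with control siRNA, followed with CHI3L1 siRNA by ACLY (101), SREBF1 (92.7), INSIG1 (65.2) and FDFT1 (49.7). With control siRNA the same genes led, with SREBF1 (90.6) above ACLY (83.8) and FDFT1 (67.2) above INSIG1 (62.9). TM7SF2 had the lowest, at 2.06 with CHI3L1 siRNA and 2.46 with control siRNA. IDI1 ranked 19 of 32 with CHI3L1 siRNA and 8 of 32 with control siRNA, the largest shift in rank among the members. Per kilobase, SREBF1 stood 3.76 times above SREBF2 with CHI3L1 siRNA and 5.26 times above it with control siRNA.

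Other genes of these pathways were counted by the same rule, against 13.4% lower and 7.73% higher among all tested genes. Of 8 genes that process SREBP or turn over sterol-regulated proteins, 1 was lower and 0 higher: RNF139, a ubiquitin ligase of the endoplasmic reticulum, had 43.9 CPM with CHI3L1 siRNA and 68.4 CPM with control siRNA (log2 fold −0.63). That is 12.5% of the list, near the share of all tested genes. Of 10 genes that use farnesyl or related diphosphates outside sterol synthesis, 1 was lower, PDSS1 of ubiquinone synthesis (log2 fold −0.61), and 0 were higher. The lower share of 10% is below that of all tested genes, and after the length and GC correction PDSS1 was at −0.38, short of 1.5-fold.

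Genes of cholesterol storage, transport and the sterol-sensing LXR receptors were counted in a list that also held LBR and ERG28 of sterol synthesis. Of its 11 tested genes, 3 were higher (27.3%, against 7.73% of all tested genes) and 1 lower (9.09%, against 13.4%). LBR and ERG28 were among those that did not reach 1.5-fold. With the length and GC correction 0 of the 11 were higher and 1 was lower. NPC1, which exports cholesterol from lysosomes, had 176 CPM with CHI3L1 siRNA and 95.2 CPM with control siRNA, a ratio of 1.84 (1.74 to 1.96). SOAT1, which esterifies cholesterol for storage, had 73.5 CPM with CHI3L1 siRNA and 46.7 CPM with control siRNA, and ABCA1, a cholesterol exporter of the plasma membrane, had 80.3 CPM with CHI3L1 siRNA and 51.2 CPM with control siRNA. Of the 11 tested genes, 7 did not reach 1.5-fold in either direction. By log2 fold 7 of the 11 were above 0 and 4 below. Among those below was NPC2, named after its value was seen, with a ratio of 0.852 (0.821 to 0.885) and a corrected log2 fold of 0.24. NR1H3, the gene of the LXR-alpha receptor, had 10.2 CPM with CHI3L1 siRNA and 17.5 CPM with control siRNA. Exons of NPC1, NR1H3 and PDSS1 overlap exons of another gene on the opposite strand. After the length and GC correction the log2 folds were 0.49 for NPC1, 0.57 for SOAT1 and 0.23 for ABCA1, all short of 1.5-fold, and −0.82 for NR1H3.

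Of 26 tested genes of fatty acid elongation, activation and esterification, 1 was higher and 2 were lower. The elongase gene ELOVL7 had 13.8 CPM with CHI3L1 siRNA and 8.41 CPM with control siRNA, and the dehydratase genes HACD1 and HACD3 of the elongation cycle had ratios of 0.494 (0.454 to 0.538) and 0.619 (0.589 to 0.651). The shares, 3.85% higher and 7.69% lower, were below those of all tested genes (7.73% and 13.4%). After the length and GC correction 2 were higher and 3 lower: these calls held, and ME1 (0.61) and GPAM (−0.63), named after their values were seen, passed 1.5-fold as well. Of 17 genes of fatty acid oxidation, 2 were lower and 0 higher: ECI1, an enoyl-CoA isomerase, had a log2 fold of −0.90 and ETFA, an electron carrier subunit, of −0.66. That is 11.8% of the list, near the 13.4% of all tested genes. Corrected, ECI1 was at −0.67, ETFA at −0.49 fell short of 1.5-fold, and ECI2 (0.66), named after its value was seen, was higher. The median log2 folds of these lists were 0.36 for SREBP processing, −0.04 for isoprenoid use, 0.09 for storage and transport, 0.14 for elongation and esterification and 0.13 for oxidation, against 0.01 over all tested genes. In the same order the corrected medians were 0.23, −0.06, 0.23, 0.25 and 0.08, against 0.04 over all corrected genes.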

How the data were processed

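RNA sequencing of FTC-133 cells gave 1 library with CHI3L1 siRNA and 1 with control siRNA, made from 1 ug of total RNA with a TruSeq kit, per the labels' protocols. Both are columns of 1 table of normalised values that the authors deposited. The unit of the deposited values is CPM, from the values themselves. They sum to 998507 with CHI3L1 siRNA and 1001500 with control siRNA, so the scaling was close to each library's total and not exactly to it. FastQC, MultiQC, Trimmomatic, HISAT2, featureCounts and GRCh38 are named, with no role, in the submitters' processing notes. The sources used here do not state the normalisation tool, the annotation or how low genes were filtered.

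Divided by the CPM worth of 1 read (0.0513 with CHI3L1 siRNA and 0.0632 with control siRNA) and less an offset of 0.001, 100% of the deposited values were whole reads to within 0.01, and every gene had at least 6 reads in 1 of the libraries. Without molecular identifiers, intervals cover counting error only. No count test was run, since there are no replicates. A read ratio is given in CPM units.

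Symbols were found for 19265 of 19362 identifiers in a table of Ensembl names. GENCODE 29 gave coordinates, exons and 1 transcript per coding gene (principal, then best supported, then longest), and RefSeq gave promoters. The correction subtracted natural splines with 5 degrees of freedom per term, fitted to 12555 coding genes outside the lists. It took up 36.1% of the variance of their folds. The named genes are all members, CHI3L1, and up to 4 genes past 1.5-fold per other list. Members, lists and the correction were chosen with earlier results of these data known. Alternatives were other pseudocounts, scalings, filters, thresholds, list borders and corrections. Steps were tested on simulated data and run with Python 3.11.15, numpy 2.4.6, pandas 2.3.3 and scipy 1.17.1.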

Additional observations from a re-analysis of the deposited data

How the results depend on the processing

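The corrections for only one kind of length were chosen after seeing the data. At a pseudocount of 10 CPM the log2 fold of CHI3L1 was −1.36 and 0 fatty acid genes were lower. At 2-fold, 1 sterol gene and 0 fatty acid genes were lower. At the lowest fold threshold tried, which 25.5% of all genes passed as lower and 23.3% as higher, 9 sterol genes were lower, and 2 fatty acid genes and 1 regulator were higher. With counting intervals wholly beyond 1.5-fold, 0 fatty acid genes were lower. With the median of genes of at least 50 CPM set to 0, the fatty acid median was −0.11 and the share of higher genes among all those past 1.5-fold was 21.1%, against 36.5% in the deposited values and 49.1% after the length and GC correction. That correction gave medians of −0.093 (sterol) and −0.26 (fatty acid), a difference of 0.16, and 2 lower fatty acid genes. Without coding length it gave −0.052, −0.22 and 0.17, with 2 lower fatty acid genes and a CHI3L1 fold of −1.38. Without transcript length it gave −0.16, −0.21 and 0.046, a regulator median of 0.20, 0 lower fatty acid genes and 1 higher regulator. The sterol median was below the fatty acid median under the other settings run. No paired analysis was possible because each group has 1 library. Depth limits the genes with few reads most, TM7SF2 among the members.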
